A study of Mus musculus with 378 samples.

Results

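The costimulatory TNF receptor family was followed here through 6 genes, Tnfrsf4, Tnfrsf18, Tnfrsf9, Tnfrsf1b, Cd27 and Cd40lg, in T cells from mouse tumours. The genes were chosen by name, and all 6 were found among the 23420 genes of the table. The tumours were B16F10 melanoma, a transplanted mouse melanoma line, in C57BL/6 mice labelled Il27ra KO or wild type, and the design text asks about the signature of genes that IL-27 drives in tumour T cells. The titles give 94 single-cell libraries of CD4 cells labelled Il27ra KO, 94 of WT CD4 cells, 92 of CD8 cells labelled Il27ra KO and 94 of WT CD8 cells, each with 1 population library. Libraries were made with Smart-seq2, a full-length cDNA method. No age, animal or further treatment is labelled, so each genotype and cell type is 1 sample and its cells are not replicates. No test between groups was possible, and values below are levels with the SD over cells, or shares of cells with exact Clopper-Pearson 95% intervals that cover counting error only.

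TNF receptor family members on T cells bind trimeric ligands made mostly by antigen-presenting cells and pass the signal through TRAF adaptors to NF-kB. Tnfrsf4 (OX40), Tnfrsf18 (GITR), Tnfrsf9 (4-1BB), Tnfrsf1b (TNF receptor 2) and Cd27 act after the T cell receptor and CD28 to promote survival and division. Regulatory T cells, which are marked by the transcription factor Foxp3, are known for carrying GITR, OX40 and TNF receptor 2. Cd40lg (CD40 ligand) is the ligand of the set: activated helper T cells use it to stimulate CD40 on B cells, dendritic cells and macrophages.

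In the GENCODE M21 annotation of GRCm38, 4 of the 6 genes lie on chromosome 4. Tnfrsf4 (chr4:156013843-156016612, plus strand) and Tnfrsf18 (chr4:156026164-156028895, plus strand) are neighbours, with 9551 bases between the end of Tnfrsf4 and the start of Tnfrsf18. Tnfrsf9 lies at chr4:150914562-150946102 on the plus strand and Tnfrsf1b at chr4:145213463-145246870 on the minus strand. Cd27 lies at chr6:125232622-125237010 on the minus strand and Cd40lg at chrX:57212143-57224042 on the plus strand. All 6 are protein-coding. Tnfrsf9 overlaps Camta1, Cd27 overlaps Vamp1 and the microRNA gene Mir8113, and Tnfrsf18 overlaps the antisense gene Gm16008. The sources used here do not say whether the authors' counting used strand. Values of Tnfrsf9, Cd27 and Tnfrsf18 may therefore hold reads of partners on the opposite strand. Overlap was taken between whole genes, and shared exons were not looked for. Camta1 was above 0 in 8.97% of KO CD4, 3.80% of WT CD4, 10.8% of KO CD8 and 17.9% of WT CD8 cells, and Vamp1 in 11.5%, 10.1%, 9.46% and 7.46% of the same groups.

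The promoters of Tnfrsf4, Tnfrsf18 and Tnfrsf9 are shown because Tnfrsf4 and Tnfrsf18 are neighbours whose levels followed each other most closely over the cell groups, and Tnfrsf9 had the largest difference between Foxp3 classes of all members in WT cells. The RefSeq table (GRCm38.p6) held an entry for 5 of the 6 genes, each running from 250 bases before the start to 50 after it. The windows are chr4:156013445-156013744 for Tnfrsf4, chr4:156026072-156026371 for Tnfrsf18 and chr4:150927749-150928048 for the second of the Tnfrsf9 starts, all on the plus strand and written 5′ to 3′.
Tnfrsf4: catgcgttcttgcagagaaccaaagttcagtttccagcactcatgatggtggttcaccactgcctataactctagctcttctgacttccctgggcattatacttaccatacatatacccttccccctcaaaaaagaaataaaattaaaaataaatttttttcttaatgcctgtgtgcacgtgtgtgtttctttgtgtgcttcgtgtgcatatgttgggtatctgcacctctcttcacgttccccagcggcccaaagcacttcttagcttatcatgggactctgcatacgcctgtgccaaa
Tnfrsf18: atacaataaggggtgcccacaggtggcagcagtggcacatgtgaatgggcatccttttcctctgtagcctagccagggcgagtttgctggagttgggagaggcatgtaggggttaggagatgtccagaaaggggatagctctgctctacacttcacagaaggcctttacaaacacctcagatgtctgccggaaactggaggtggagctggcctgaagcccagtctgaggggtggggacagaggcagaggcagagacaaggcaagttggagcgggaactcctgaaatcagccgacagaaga
Tnfrsf9, second start: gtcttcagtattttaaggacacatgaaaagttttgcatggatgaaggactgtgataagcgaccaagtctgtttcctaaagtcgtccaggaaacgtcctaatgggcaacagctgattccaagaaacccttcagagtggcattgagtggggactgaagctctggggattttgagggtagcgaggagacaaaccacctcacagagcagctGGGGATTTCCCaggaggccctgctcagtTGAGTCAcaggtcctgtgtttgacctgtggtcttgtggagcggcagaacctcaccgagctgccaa
Capitals mark matches to the motifs searched on both strands, which were an NF-kB motif of GGG, any 5 bases and CC, a narrower NF-kB form of GGGA, any base, TT, any base and CC, an AP-1 motif TGANTCA, a forkhead motif GTAAACA and a CRE motif TGACGTCA. The narrower form was added with these sequences in view. In the Tnfrsf9 window the first run of capitals holds overlapping NF-kB matches between bases -43 and -33 from the start, 1 of which also fits the narrower form, and the second run is an AP-1 match at -15 to -9. Of 32851 promoters of the same length, 50.8% held the wider NF-kB motif, 1.20% the narrower form, 7.81% TGANTCA, 3.65% GTAAACA and 1.79% TGACGTCA. The Tnfrsf4 and Tnfrsf18 windows and that of the first Tnfrsf9 start held 0 matches. Those of Tnfrsf1b and Cd27, not shown, held 3 and 2 matches, all to the wider NF-kB motif. A match or its lack describes these letters alone.

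A cell entered the comparisons if 1000 or more genes were above 0 FPKM, which left 78 KO CD4, 79 WT CD4, 74 KO CD8 and 67 WT CD8 cells of 374. Foxp3 was above 0 in 39 of the KO CD4 cells (50%, interval 38.5 to 61.5%) and in 30 of the WT CD4 cells (37.97%, 27.3 to 49.6%). It was above 0 in 3 KO CD8 cells and 0 of 67 WT CD8 cells. Cd4 was above 0 in 89.7% of KO CD4, 79.7% of WT CD4, 2.70% of KO CD8 and 8.96% of WT CD8 cells, and Cd8a in 7.69%, 7.59%, 94.6% and 83.6%, so the lineage genes followed the titles. Il27ra did not follow the genotype label. It was above 0 in 52.6% of KO CD4 and 48.1% of WT CD4 cells, and in 52.7% of KO CD8 and 38.8% of WT CD8 cells. Only among Foxp3-negative CD4 cells was the share lower in KO, at 43.6% against 53.1% in WT. "KO" therefore means only "labelled Il27ra KO" throughout, and no direction between genotypes below is shown to follow from loss of the receptor. Each group also carries an animal word of its own in its titles, and WT CD4 titles alone carry p3 where the others carry p2, so genotype, cell type and whatever these tags mark cannot be told apart. The protocol itself mentions CD8+ T cells alone. Medians of 2809 genes in KO and 2822 in WT Foxp3-positive cells stood beside 2500 in KO and 2119 in WT Foxp3-negative cells, 2797 in KO CD8 and 2919 in WT CD8 cells. FPKM hides depth, so reads per cell were estimated from the smallest steps of the values, with medians of 657910 and 619564 in KO and WT Foxp3-positive, 551884 and 301581 in KO and WT Foxp3-negative, and 641669 and 466119 in KO and WT CD8 cells.

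**Figure D1:**
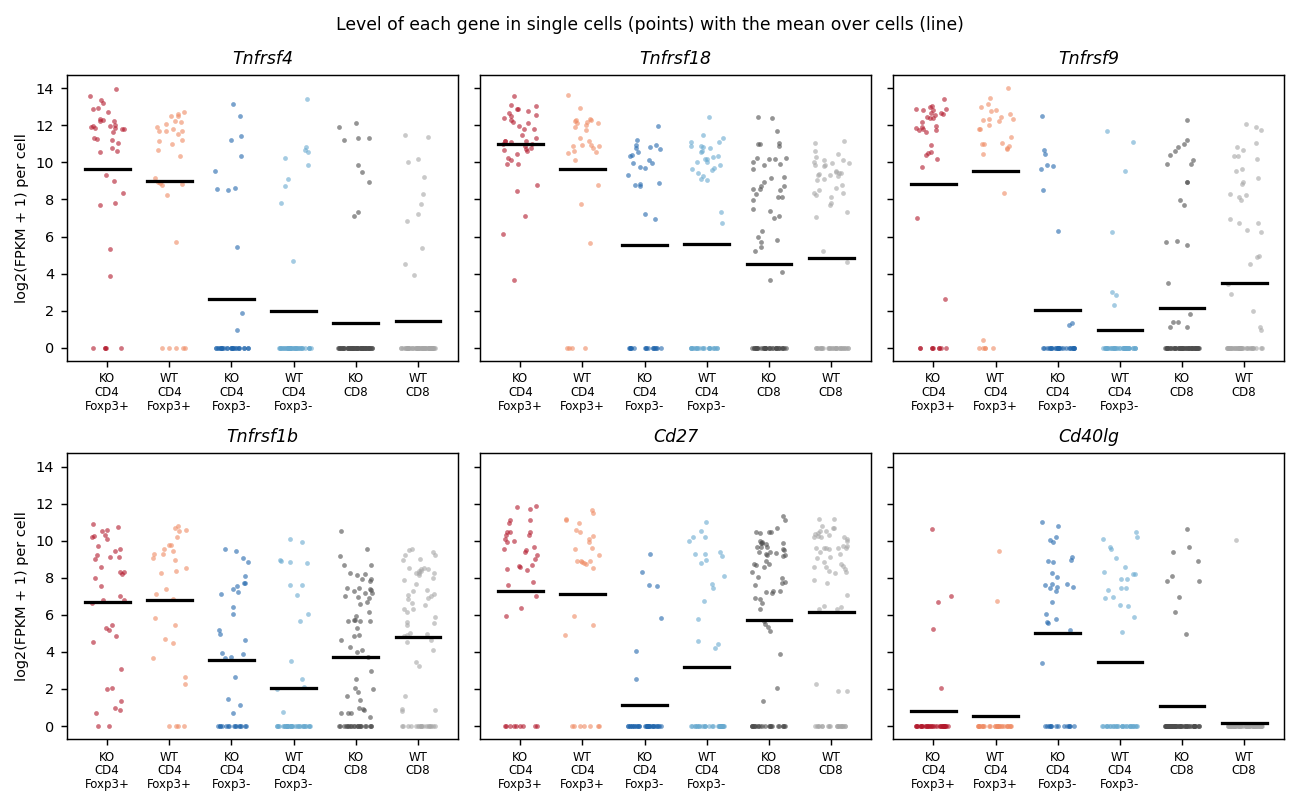
Level of each of the 6 genes as log2(FPKM + 1) on the y axis in every kept cell (points) with the mean over cells (line), in 6 cell groups on the x axis, KO meaning cells labelled Il27ra KO. Most receptor values lie either at 0 or well above it, and the Tnfrsf4 mean is 9.66 in KO and 9.005 in WT Foxp3-positive cells against 2.62 or less in every other group.

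Tnfrsf4 encodes OX40, which sustains the survival of activated CD4 T cells. Its FPKM ran from 0 to 15900 with a median of 3207 in KO Foxp3-positive cells and from 0 to 6659 with a median of 2181 in WT Foxp3-positive cells. The median was 0 in KO and WT Foxp3-negative cells and in KO and WT CD8 cells, with highest cells at 9106, 10812, 4446 and 2827. Most cells outside the Foxp3-positive classes thus had none, but single cells in each group reached the range of Foxp3-positive cells. Tnfrsf4 was above 0 in 87.2% (72.6 to 95.7%) of KO and 83.3% (65.3 to 94.4%) of WT Foxp3-positive cells. It was above 0 in 30.8% (17.02 to 47.6%) of KO and 20.4% (10.2 to 34.3%) of WT Foxp3-negative cells, and in 13.5% (6.68 to 23.5%) of KO and 17.9% (9.61 to 29.2%) of WT CD8 cells. Mean log2(FPKM + 1) was 9.66 ± 4.30 (SD, n = 39 cells) in KO and 9.005 ± 4.40 (n = 30) in WT Foxp3-positive cells, 2.62 ± 4.503 (n = 39) in KO and 1.96 ± 4.03 (n = 49) in WT Foxp3-negative cells, and 1.36 ± 3.52 (n = 74) in KO and 1.44 ± 3.27 (n = 67) in WT CD8 cells. With groups ordered by mean level, the only neighbours whose intervals of shares did not overlap were WT Foxp3-positive and KO Foxp3-negative cells.

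Tnfrsf18 encodes GITR, a costimulatory receptor that regulatory T cells carry at rest. It was the most widely found of the 6 genes in KO Foxp3-positive cells, where all 39 had it (90.97 to 100%), from 11.6 to 12474 FPKM with a median of 2279. In WT Foxp3-positive cells it was above 0 in 26 of 30 (86.7%, 69.3 to 96.2%), with a median of 1962 and a highest cell of 12541. Unlike Tnfrsf4, Tnfrsf18 was also above 0 in more than 50% of the cells of every other group. The shares were 56.4% (39.6 to 72.2%) in KO and 55.1% (40.2 to 69.3%) in WT Foxp3-negative cells, and 52.7% (40.7 to 64.4%) in KO and 53.7% (41.1 to 66.002%) in WT CD8 cells. Mean log2(FPKM + 1) was 10.98 ± 1.99 in KO and 9.63 ± 4.14 in WT Foxp3-positive cells, 5.56 ± 5.04 in KO and 5.57 ± 5.16 in WT Foxp3-negative cells, and 4.52 ± 4.59 in KO and 4.86 ± 4.66 in WT CD8 cells. The 4 lower groups had overlapping intervals, and the interval of WT Foxp3-positive cells only touched that of WT Foxp3-negative cells. Among the cells with Tnfrsf18, the median was 418 FPKM in KO CD8 and 648 in WT CD8 cells, against 2279 in KO and 2456 in WT Foxp3-positive cells.

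Tnfrsf9 encodes 4-1BB, a receptor induced by antigen that promotes survival of CD8 T cells. In Foxp3-positive cells its median was 3501 FPKM in KO, with a highest cell of 10965, and 3095 FPKM in WT, with a highest cell of 16833. In the other 4 groups the median was 0 and the highest cells had between 3341 and 5793 FPKM. It was above 0 in 76.9% (60.7 to 88.9%) of KO and 83.3% (65.3 to 94.4%) of WT Foxp3-positive cells. CD8 cells came next, with 29.7% (19.7 to 41.5%) in KO and 46.3% (33.998 to 58.9%) in WT, above the Foxp3-negative cells with 25.6% (13.04 to 42.1%) in KO and 14.3% (5.94 to 27.2%) in WT. Mean log2(FPKM + 1) was 8.86 ± 5.25 in KO and 9.51 ± 4.92 in WT Foxp3-positive cells, 2.06 ± 4.02 in KO and 0.95 ± 2.77 in WT Foxp3-negative cells, and 2.12 ± 3.89 in KO and 3.52 ± 4.39 in WT CD8 cells. By mean level, the intervals of neighbours overlapped except between KO Foxp3-positive and WT CD8 cells. The interval of WT Foxp3-negative cells lay wholly below that of WT CD8 cells.

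Tnfrsf1b encodes TNF receptor 2, through which TNF costimulates T cells. Its levels were lower than those of the 3 receptors above in Foxp3-positive cells, with medians of 248.2 FPKM in KO and 314.7 FPKM in WT and highest cells of 1906 in KO and 1774 in WT. It was found widely nevertheless, in 94.9% (82.7 to 99.4%) of KO and 86.7% (69.3 to 96.2%) of WT Foxp3-positive cells and in 70.3% (58.5 to 80.3%) of KO and 73.1% (60.9 to 83.2%) of WT CD8 cells. Among Foxp3-negative cells it was above 0 in 61.5% (44.6 to 76.6%) of KO and 32.7% (19.9 to 47.5%) of WT cells. Mean log2(FPKM + 1) was 6.70 ± 3.504 in KO and 6.78 ± 3.61 in WT Foxp3-positive cells, 3.54 ± 3.52 in KO and 2.05 ± 3.45 in WT Foxp3-negative cells, and 3.74 ± 3.38 in KO and 4.78 ± 3.53 in WT CD8 cells. All neighbours in this order had overlapping intervals of shares, while those of Foxp3-positive and Foxp3-negative cells did not overlap in either genotype.

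Cd27 is a receptor that naive and memory T cells already carry before activation. Of the 5 receptors it had the smallest gap between Foxp3-positive and CD8 cells in share above 0 and in mean level, in both genotypes. Its median was 523 FPKM in KO and 478 in WT Foxp3-positive cells, 154.9 in KO and 358.2 in WT CD8 cells, and 0 in both Foxp3-negative classes. It was above 0 in 76.9% (60.7 to 88.9%) of KO and 76.7% (57.7 to 90.1%) of WT Foxp3-positive cells, and in 68.9% (57.1 to 79.2%) of KO and 70.1% (57.7 to 80.7%) of WT CD8 cells. The shares were lower in Foxp3-negative cells, at 17.9% (7.54 to 33.5%) in KO and 38.8% (25.2 to 53.8%) in WT. Mean log2(FPKM + 1) was 7.29 ± 4.26 in KO and 7.14 ± 4.30 in WT Foxp3-positive cells, 1.16 ± 2.69 in KO and 3.18 ± 4.24 in WT Foxp3-negative cells, and 5.72 ± 4.25 in KO and 6.16 ± 4.44 in WT CD8 cells. The only neighbours with separate intervals were KO CD8 and WT Foxp3-negative cells.

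Cd40lg, the ligand, had the opposite distribution. It was above 0 in 64.1% (47.2 to 78.8%) of KO and 42.9% (28.8 to 57.8%) of WT Foxp3-negative cells, with highest cells of 2085 and 1423 FPKM. In Foxp3-positive cells it was above 0 in 5 of 39 KO cells (12.8%, 4.30 to 27.4%) and in 2 of 30 WT cells (6.67%, 0.818 to 22.1%). Among CD8 cells it was above 0 in 10 of 74 KO cells (13.5%, 6.68 to 23.5%) and in 1 of 67 WT cells (1.49%, 0.0378 to 8.04%), that cell having 1065 FPKM. Mean log2(FPKM + 1) was 0.81 ± 2.37 in KO and 0.54 ± 2.08 in WT Foxp3-positive cells, 5.00 ± 4.08 in KO and 3.43 ± 4.12 in WT Foxp3-negative cells, and 1.09 ± 2.83 in KO and 0.15 ± 1.23 in WT CD8 cells. The intervals separated WT Foxp3-negative from KO CD8 cells, and no other neighbours.

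**Figure D2:**
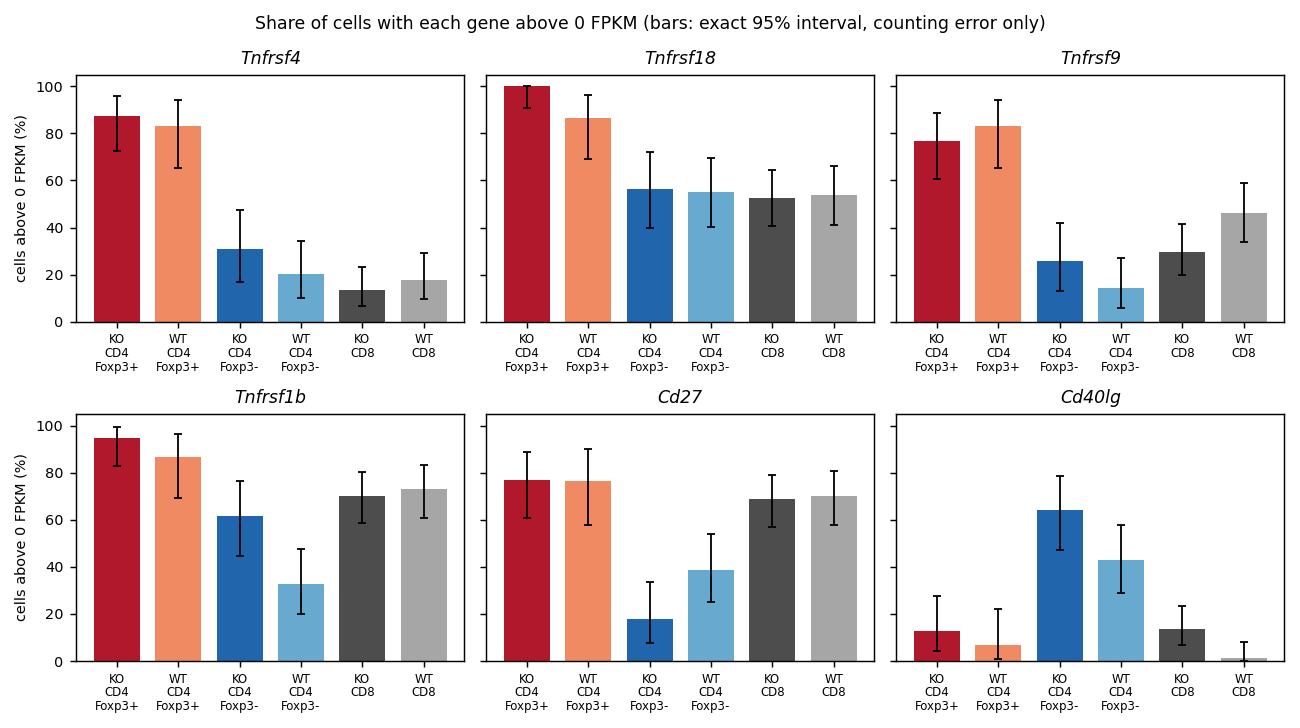
Share of cells above 0 FPKM for each gene (y axis, %) in the 6 cell groups (x axis), with exact 95% intervals that cover counting error only. Foxp3-positive bars are the highest for Tnfrsf4, Tnfrsf18, Tnfrsf9, Tnfrsf1b and Cd27, with Tnfrsf18 at 100% in KO. Cd40lg peaks in Foxp3-negative cells at 64.1% in KO and 42.9% in WT.

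At equal estimated depth the Foxp3-positive classes again had the highest shares of Tnfrsf4, Tnfrsf18, Tnfrsf9 and Tnfrsf1b, but not of Cd27. The Foxp3 classes were those set before thinning. With each cell thinned to 100000 estimated reads, 6 WT Foxp3-negative, 1 KO CD8 and 12 WT CD8 cells were too shallow and were left out. Thinned shares for Tnfrsf4 were 86.6% in KO and 83.3% in WT Foxp3-positive, 26.04% in KO and 20.6% in WT Foxp3-negative, and 13.7% in KO and 19.5% in WT CD8 cells. For Tnfrsf1b they were 85.6% in KO and 84.6% in WT Foxp3-positive, 54.9% in KO and 32.02% in WT Foxp3-negative, and 59.6% in KO and 82.6% in WT CD8 cells, against 71.2% in KO and 87.3% in WT of the same CD8 cells without thinning, a setting added after seeing the data. Without thinning, the Tnfrsf1b share of these WT CD8 cells lay between the Foxp3-positive shares of 86.7% in WT and 94.9% in KO. The shares of Cd27 in those CD8 cells were 65.7% in KO and 79.5% in WT with thinning, and 68.5% in KO and 83.6% in WT without it. The thinned Cd27 share in WT CD8 cells was thus above the Foxp3-positive shares, 76.9% in KO and 76.7% in WT without thinning. For Cd40lg the thinned shares were 62.4% in KO and 48.5% in WT Foxp3-negative cells.

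Within the CD4 samples, Foxp3-positive cells had higher levels of all 5 receptors and a lower level of Cd40lg than Foxp3-negative cells, in both genotypes. In KO cells the difference of mean log2(FPKM + 1), Foxp3-positive minus Foxp3-negative, was 7.04 for Tnfrsf4, 5.42 for Tnfrsf18, 6.80 for Tnfrsf9, 3.15 for Tnfrsf1b, 6.14 for Cd27 and -4.19 for Cd40lg. In WT cells it was 7.05 for Tnfrsf4, 4.06 for Tnfrsf18, 8.55 for Tnfrsf9, 4.73 for Tnfrsf1b, 3.96 for Cd27 and -2.89 for Cd40lg. All 6 genes were thus past a difference of 1 in both samples, 5 higher and 1 lower. Of 8786 genes tested in KO cells, each above 0 in 10% or more of 1 class at least, 14.9% were at least 1 higher and 2.99% at least 1 lower in Foxp3-positive cells. In WT cells these were 22.7% and 1.73% of 8588 genes. The 5 receptors lay above the 99th percentile of all genes in both samples, and Cd40lg had the lowest difference of all 8786 genes in KO cells. With WT cells matched on genes detected, 20 of each class, the Tnfrsf18 difference was 1.19 rather than 4.06. Median estimated reads were 619564 in WT Foxp3-positive and 301581 in WT Foxp3-negative cells, and the part of depth was not tested. The median of the 6 members was 5.78 in KO and 4.39 in WT, beside 0.19 and 0.38 over all genes.

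Differences on this scale also follow the share of cells above 0, so the ratio of mean FPKM is given beside them. Mean Tnfrsf4 was 3589 FPKM in KO Foxp3-positive and 598 in KO Foxp3-negative cells, a ratio of 6.01, and 2370 and 390 FPKM in the same WT classes, a ratio of 6.07. The ratio for Tnfrsf9 was 11.6 in KO and 30.6 in WT, for Tnfrsf18 4.94 and 3.61, for Tnfrsf1b 4.47 and 5.21, and for Cd27 24.1 and 3.53. For Cd40lg it was 0.163 in KO and 0.153 in WT. Cells of the classes differed in other ways: at least 1 class II gene was above 10 FPKM in 43.6% of KO and 63.3% of WT Foxp3-positive cells, against 10.3% of KO and 4.08% of WT Foxp3-negative cells. At least 1 macrophage or monocyte gene was above 10 FPKM in 15.4% of KO and 20% of WT Foxp3-positive cells, against 5.13% of KO and 2.04% of WT Foxp3-negative cells. The setting without cells carrying markers of other cell types used a stricter rule. It left out cells with at least 2 marker genes above 10 FPKM, pooled over the lists of several cell types. A cell with only 1 such gene was kept. This left out 14 KO and 17 WT Foxp3-positive cells, and 7 KO and 4 WT Foxp3-negative cells. Under this setting the Tnfrsf4 difference was 6.31 in KO and 6.501 in WT, and that of Cd40lg -4.50 in KO and -3.10 in WT. A cell with Foxp3 at 0 may still have been a regulatory T cell, which was not tested. In Foxp3-negative cells, Tnfrsf4 was above 0 in 8 of 12 KO cells with Il2ra, the interleukin-2 receptor alpha chain that regulatory and activated T cells carry, against 4 of 27 without it, while in WT it was 2 of 8 with Il2ra against 8 of 41 without.

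**Figure D3:**
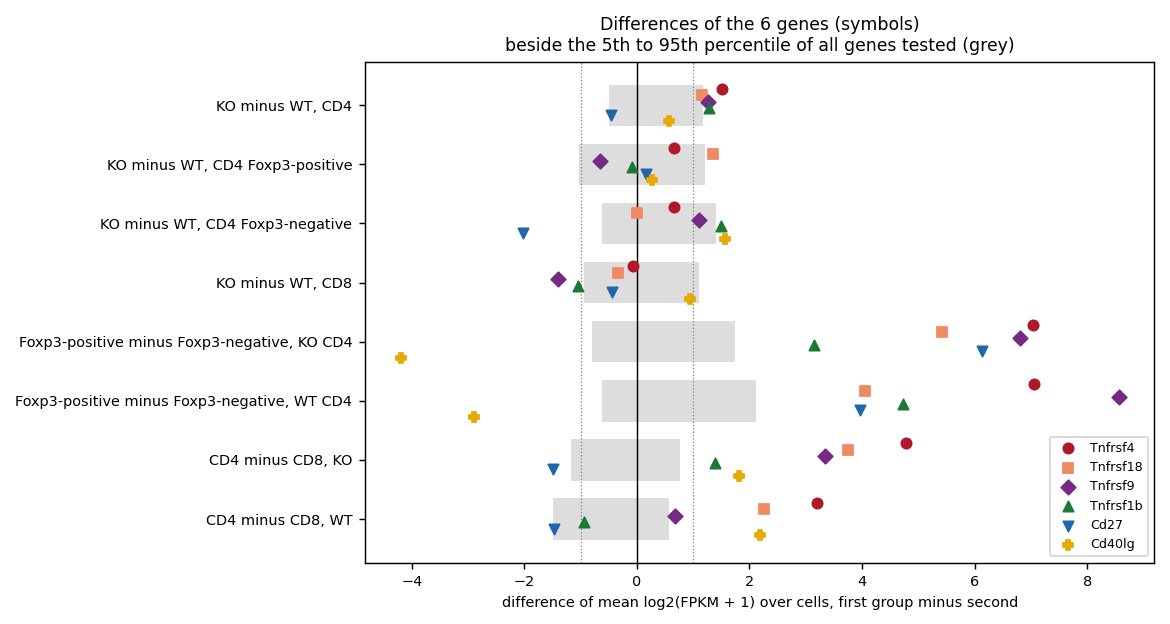
Difference of mean log2(FPKM + 1) on the x axis for the 6 genes (symbols) in 8 comparisons (rows, first group minus second), with the 5th to 95th percentile of all genes tested in grey and dotted lines at a difference of 1 either way. In both Foxp3 rows every receptor lies right of the grey band and Cd40lg left of it, whereas in the KO minus WT rows most symbols lie in the band or near its ends.

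Between genotypes the members differed less, and not in 1 direction. In CD4 cells as a whole, mean log2(FPKM + 1) was 6.14 in KO and 4.63 in WT for Tnfrsf4, 8.27 and 7.11 for Tnfrsf18, 5.46 and 4.20 for Tnfrsf9, and 5.12 and 3.84 for Tnfrsf1b. The differences, KO minus WT, were 1.51, 1.16, 1.26 and 1.28, against 0.57 for Cd40lg and -0.46 for Cd27. So 4 of the 6 genes were at least 1 higher in KO cells, as were 7.73% of 8176 genes tested, while 0.342% were at least 1 lower. The median was 1.21 over the members and 0.17 over all genes. The share of Foxp3-positive cells moved with this result, being 50% in KO and 37.97% in WT. With Foxp3-positive and Foxp3-negative differences given equal weight, a setting chosen after seeing the data, the values were 0.66 for Tnfrsf4, 0.67 for Tnfrsf18, 0.23 for Tnfrsf9 and 0.71 for Tnfrsf1b, and 0 genes of the set were past 1. Median genes per cell were 2650.5 in KO and 2307 in WT CD4 cells, and their part in the result was not tested. Among cells with at least 2000 genes the Tnfrsf18 difference was -0.20.

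In Foxp3-positive cells 1 of the 6 genes was past 1, Tnfrsf18, at 10.98 in KO and 9.63 in WT (difference 1.36), as were 7.92% of 9030 genes on the higher side and 5.26% on the lower side. The other differences, KO minus WT, were 0.65 for Tnfrsf4, -0.65 for Tnfrsf9, -0.08 for Tnfrsf1b, 0.16 for Cd27 and 0.27 for Cd40lg. Tnfrsf18 had similar mean levels, 3445 FPKM in KO and 2871 FPKM in WT, so the log2 difference came with 4 WT cells and 0 KO cells at 0. Without cells carrying markers of other cell types, which left out 14 KO and 17 WT Foxp3-positive cells, the Tnfrsf1b difference was -1.72.

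In Foxp3-negative cells 3 genes were at least 1 higher in KO, Tnfrsf9 with a difference of 1.10, Tnfrsf1b with 1.496 and Cd40lg with 1.57, beside 12.5% of 8041 genes tested. The ratio of mean FPKM, KO to WT, was 2.33 for Tnfrsf9, 1.12 for Tnfrsf1b and 1.66 for Cd40lg. Their signs held under all 10 alternatives, but values past 1 under 7 for Tnfrsf9 and 6 each for Tnfrsf1b and Cd40lg. Estimated reads had medians of 551884 in KO and 301581 in WT cells, and the part of depth was not tested. Cd27 was lower in KO by 2.02 on the log2 scale, a direction in which 1.26% of genes were past 1, and only 0.0373% of genes had a lower value. Mean Cd27 was 35.8 FPKM in KO and 228.2 FPKM in WT Foxp3-negative cells, and its highest cell was 623 in KO and 2070 in WT. The intervals of its shares overlapped (7.54 to 33.5% in KO and 25.2 to 53.8% in WT), while cells with Cd27 had a median of 184.96 FPKM in KO and 506 FPKM in WT. The Cd27 difference stayed below -1 under all 10 alternative settings, from -2.74 to -1.31. Tnfrsf4 differed by 0.66 and Tnfrsf18 by -0.01. The median was 0.88 over the members and 0.23 over all genes, against 0.21 and 0.04 in Foxp3-positive cells.

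In CD8 cells Tnfrsf9 and Tnfrsf1b were lower in KO, with differences of -1.40 and -1.04, beside 3.82% of 9031 genes at least 1 lower and 5.94% at least 1 higher. Tnfrsf9 averaged 255.2 FPKM in KO and 386 FPKM in WT CD8 cells, a ratio of 0.661, and Tnfrsf1b 101.7 in KO and 150.8 in WT, a ratio of 0.674. Their intervals of shares overlapped. Cd40lg differed by 0.94, with 10 KO cells and 1 WT cell above 0, while Cd27 differed by -0.44, Tnfrsf18 by -0.33 and Tnfrsf4 by -0.08. In mean FPKM the last pair were higher in KO, Tnfrsf4 at 246.6 in KO and 137.2 in WT (ratio 1.797) and Tnfrsf18 at 490 in KO and 393 in WT (ratio 1.25), and the sign held under 5 of 8 alternatives for each. The median was -0.39 over the members and -0.08 over all genes. The number of genes past 1 ran from 0 to 4 over the settings tried. Mki67, a marker of dividing cells, had values above 0 in 12 of 74 KO and 26 of 67 WT CD8 cells. Tnfrsf9 was above 0 in 5 of the 12 KO and 20 of the 26 WT cells with Mki67, against 17 of 62 KO and 11 of 41 WT cells without it. Cells with Mki67 also had more genes, with medians of 3596.5 against 2770 in KO and 4549 against 2655 in WT. The parts of dividing cells and of depth in the difference were not tested.

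Taken as a whole, CD4 cells had higher levels of Tnfrsf4, Tnfrsf18 and Cd40lg and lower levels of Cd27 than CD8 cells in both genotypes. For Cd27, Tnfrsf9 and Tnfrsf1b, Foxp3-positive cells lay above CD8 cells and Foxp3-negative cells below them. Mean Cd27 was 7.29 in KO and 7.14 in WT Foxp3-positive, 1.16 and 3.18 in Foxp3-negative, and 5.72 and 6.16 in CD8 cells. Cd40lg in Foxp3-positive cells was below CD8 cells in KO, 0.81 against 1.09, and above them in WT, 0.54 against 0.15. The difference of mean log2(FPKM + 1), CD4 minus CD8, was 4.78 in KO and 3.20 in WT for Tnfrsf4, 3.75 in KO and 2.26 in WT for Tnfrsf18, and 1.82 in KO and 2.18 in WT for Cd40lg. For Cd27 it was -1.49 in KO and -1.47 in WT. In KO cells 5 genes were at least 1 higher and 1 at least 1 lower, beside 2.79% and 7.7% of 8473 genes. In WT cells 3 were higher and 1 lower, beside 2.08% and 14.1% of 8961 genes. Tnfrsf9 differed by 3.33 in KO and 0.68 in WT, and Tnfrsf1b by 1.39 in KO and -0.93 in WT. The WT direction of Tnfrsf1b turned with the scale, since mean FPKM was 243.01 in WT CD4 and 150.8 in WT CD8 cells (ratio 1.61), and with cells matched on genes detected the difference was 0.28. WT Tnfrsf9 was -0.18 without cells carrying markers of other cell types. The Cd27 value depended on the scale: mean Cd27 was 449 FPKM in KO CD4 and 417 in KO CD8 cells, and the log2 ratio of the means was 0.11. These comparisons use the same cells as those between genotypes.

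Cells with several receptors were common among Foxp3-positive cells. Of the 5 receptor genes, 4 or 5 were above 0 in 34 of 39 KO (87.2%) and 24 of 30 WT (80%) Foxp3-positive cells. The counts were 7 of 39 KO (17.9%) and 4 of 49 WT (8.16%) Foxp3-negative cells, and 16 of 74 KO (21.6%) and 22 of 67 WT (32.8%) CD8 cells. The product of the single shares alone gives 88.1% in KO and 80.5% in WT Foxp3-positive cells, so the count there was no higher than the single shares give. It gives 5.96% in KO and 3.12% in WT Foxp3-negative cells and 11.8% in KO and 19.2% in WT CD8 cells, below the counts in all 4 groups, where depth also differs between cells. Cells with 0 receptors numbered 0 in both Foxp3-positive classes, 7 KO and 10 WT among Foxp3-negative cells, and 4 KO and 9 WT among CD8 cells. In CD8 cells Tnfrsf4 occurred almost wholly within cells that also had Tnfrsf18, 10 of 10 in KO and 11 of 12 in WT. Of these Tnfrsf4 cells 8 of 10 in KO and 10 of 12 in WT also had Tnfrsf9, against 21.9% in KO and 38.2% in WT of the CD8 cells without Tnfrsf4. Over the cells of a group, Spearman's rho between pairs of receptors had a median over 10 pairs of 0.30 in KO and 0.36 in WT Foxp3-positive, 0.24 in KO and 0.24 in WT Foxp3-negative, and 0.28 in KO and 0.34 in WT CD8 cells. The points share library depth and many zeros, so these values describe and are not tested.

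**Figure D4:**
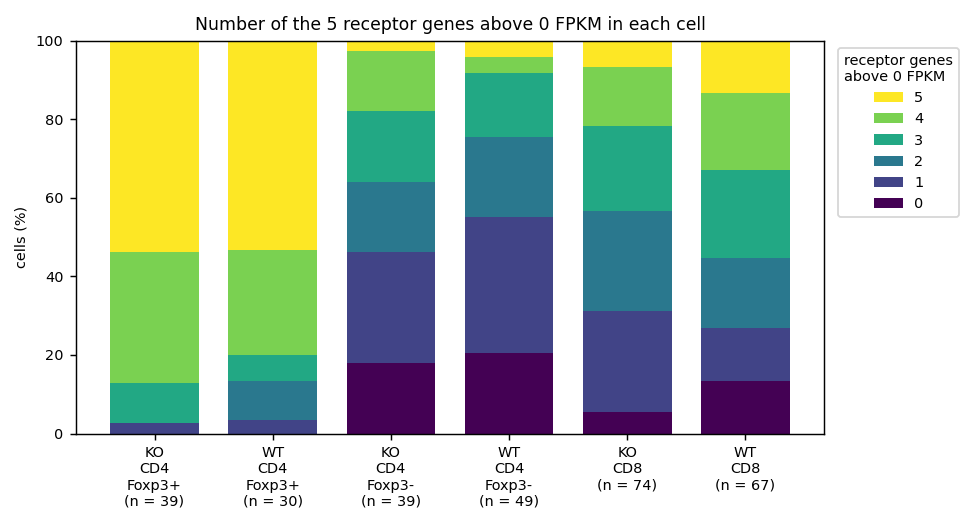
Share of cells (y axis, %) by how many of the 5 receptor genes were above 0 FPKM (colours) in the 6 cell groups (x axis). Cells with 4 or 5 receptors make up 87.2% of KO and 80% of WT Foxp3-positive cells, and 32.8% or less of every other group.

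Cd40lg and the receptors overlapped less. In KO CD4 cells 11 of 46 cells with Tnfrsf4 also had Cd40lg (23.9%), against 59.4% of cells without Tnfrsf4. Cells with Cd40lg had a median of 2 receptors and cells without it 4 in KO CD4, and 2 and 3 in WT CD4. Within Foxp3-negative cells, the medians were 2 with and 1.5 without Cd40lg in KO, and 2 and 1 in WT, so cells with the ligand had no fewer receptors there. Within Foxp3-positive cells the medians were 3 with and 5 without it in KO, and 3.5 and 5 in WT, over 5 KO and 2 WT cells with Cd40lg.

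In CD8 cells Tnfrsf4, Tnfrsf9 and Tnfrsf18 were found together with Pdcd1, the gene of PD-1, an inhibitory receptor that antigen-stimulated T cells carry. Counts by Pdcd1 are not given here for Tnfrsf1b and Cd27. Tnfrsf4 was above 0 in 8 of 21 KO cells with Pdcd1 and 2 of 53 without it, and in 12 of 41 WT cells with Pdcd1 and 0 of 26 without it. Tnfrsf9 was above 0 in 11 of 21 KO cells with Pdcd1 and 11 of 53 without it, and in 27 of 41 WT cells with Pdcd1 and 4 of 26 without it. Tnfrsf18 had 18 of 21 with and 21 of 53 without in KO, and 30 of 41 with and 6 of 26 without in WT. Cells with Pdcd1 also had more genes, with medians of 3171 against 2777 in KO and 3676 against 2461.5 in WT, and the part of depth in these shares was not tested. Tcf7, a transcription factor of naive and stem-like T cells, went the other way for Tnfrsf9, which was above 0 in 7 of 41 KO cells with Tcf7 and 15 of 33 without it, and in 1 of 16 WT cells with Tcf7 and 30 of 51 without it. Cd27 did not follow that pattern, at 30 of 41 KO cells with Tcf7 and 21 of 33 without it, and 13 of 16 WT cells with Tcf7 and 34 of 51 without it. Cells with Tcf7 had fewer genes, with medians of 2763 against 3035 in KO and 2592.5 against 3216 in WT. The part of depth was again not tested. In Foxp3-negative CD4 cells, Pdcd1 marked cells with Tnfrsf18 as well, 11 of 13 with Pdcd1 against 11 of 26 without in KO, and 9 of 10 against 18 of 39 in WT.

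The population libraries gave a second reading of each group. In bulk samples fewer cells of a type and less RNA per cell cannot be told apart. Tnfrsf4 was 3409 FPKM in KO CD4, 2671 in WT CD4, 283.5 in KO CD8 and 287.4 in WT CD8. Tnfrsf18 was 3065 in KO CD4, 2472 in WT CD4, 881 in KO CD8 and 417 in WT CD8. Tnfrsf9 was 2178 in KO CD4, 1871 in WT CD4, 1298 in KO CD8 and 889 in WT CD8. All 3 were higher in CD4 than in CD8 libraries of either genotype, as was the mean log2 level in single cells. The share of WT single cells with Tnfrsf9 was however lower in CD4, at 40.5% against 46.3% in CD8. Tnfrsf1b was 317.9 FPKM in KO CD4 and 683 in WT CD4, so its direction between genotypes was opposite to that of the single cells, and 131.55 in KO CD8 and 190.9 in WT CD8. Cd27 was 521 in KO CD4, 689 in WT CD4, 568 in KO CD8 and 726 in WT CD8. Cd40lg was 260 in KO CD4, 174.75 in WT CD4 and 79.97 in KO CD8, and it was listed at 0 in WT CD8. For Tnfrsf18 and Tnfrsf9 in CD8 the KO library was the higher one, by 1.08 and 0.55 on the log2 scale, while the single cells had the lower mean log2 level in KO. Mean FPKM over cells is the measure nearer to a library. On it Tnfrsf18 was also higher in KO CD8 cells, at 490 against 393 in WT. Tnfrsf9 remained lower, at 255.2 in KO and 386 in WT. The libraries differed in other cells too, with summed class II genes of 20736 FPKM in KO CD8 and 158.1 in WT CD8, and summed melanoma genes of 45.9 in KO CD8 and 14592 in WT CD8, and the part of such cells was not tested. These libraries differ widely: 40.8% of genes were at least 1 apart on the log2 scale between KO and WT CD4 libraries, 43% between KO and WT CD8, 40.8% between CD4 and CD8 in KO and 50.9% in WT. Il27ra itself was 95.2 FPKM in KO CD4, 255.97 in WT CD4, 90.8 in KO CD8 and 47.6 in WT CD8.

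**Figure D5:**
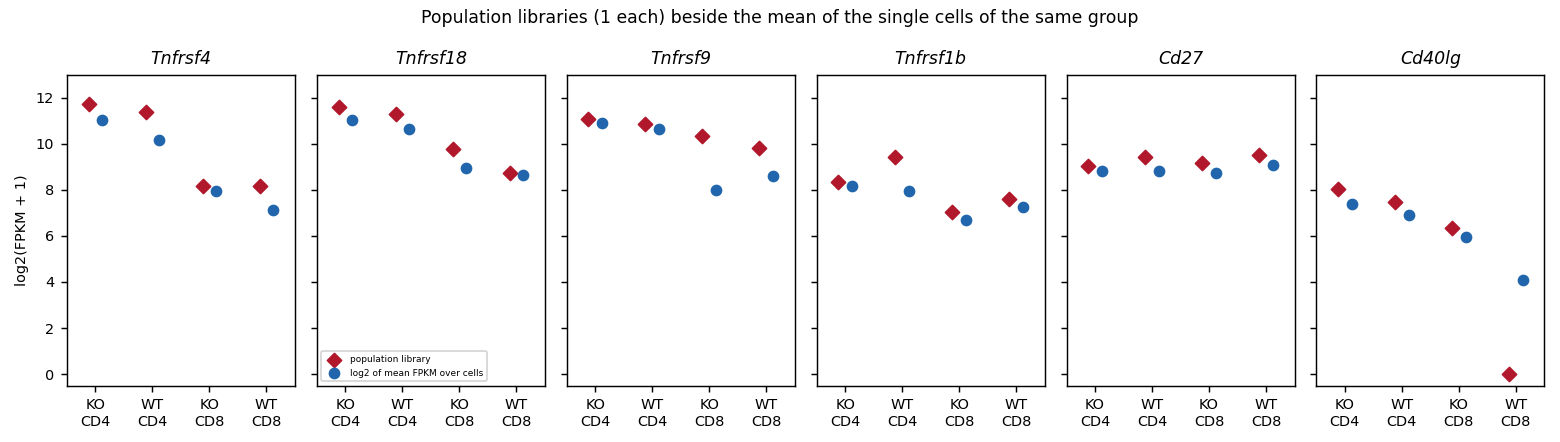
Level of each gene as log2(FPKM + 1) on the y axis in the population library of each group (diamonds, 1 library each) beside the log2 of mean FPKM plus 1 over its single cells (circles). Tnfrsf4 is at 11.74 and 11.38 in the KO and WT CD4 libraries against 8.15 and 8.17 in the KO and WT CD8 libraries, and Cd40lg is listed at 0 in WT CD8.

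The pattern of each member over the 6 cell groups was compared with that of 6827 genes by Pearson correlation of mean levels, which rests on 6 points that share libraries. The closest genes to Tnfrsf18 were Tnfrsf4 and Lrrc32 (r = 0.99 for both), and Lrrc32 had mean log2(FPKM + 1) of 3.38 in KO and 2.66 in WT Foxp3-positive cells and 0.48 or less elsewhere. The closest to Tnfrsf4 were Ifi27l2b and Rab11fip1, to Tnfrsf9 Ptp4a2 and Fam110a, to Tnfrsf1b Tapbpl and Slc39a9, to Cd27 Gtf2h5 and Serhl, and to Cd40lg Card6 and Olfr1033. Within the set, Tnfrsf9 was closest to Tnfrsf1b (r = 0.96) and Tnfrsf4 (r = 0.95), and Cd27 and Cd40lg ran opposite to each other (r = -0.96).

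Among adaptors and regulators downstream of these receptors, 8 of 16 genes tested were at least 1 higher and 1 at least 1 lower in Foxp3-positive than in Foxp3-negative KO cells, with a median difference of 0.86 beside 0.19 over all genes, of which 14.9% were higher and 2.99% lower. In WT cells 4 of 14 were higher and 0 lower, with a median of 0.79 beside 0.38, and 22.7% of all genes were higher. A count of 4 of 14 is close to that share. Traf1, an adaptor that NF-kB signalling induces and that binds the receptors' tails with Traf2, was 7.45 in KO Foxp3-positive and 4.77 in KO Foxp3-negative cells, and 7.25 and 3.31 in the same WT classes. Tank, a TRAF-binding regulator, differed by 2.97 in KO and 1.77 in WT. Tnfaip3 (A20), which restrains NF-kB, was the exception in KO, at 6.62 in Foxp3-positive and 9.29 in Foxp3-negative cells. Of the 9 ligands tested in KO cells 1 was higher and 4 lower, with a median of -0.70, and of 6 in WT cells 1 was higher and 0 lower. Ltb, lymphotoxin beta, differed by 2.32 in KO and 2.39 in WT, and Fasl, the Fas ligand, by -3.02 in KO and -0.99 in WT. Of the other receptors of the family, 1 of 9 was higher in KO, Tnfrsf13b at 2.43 in Foxp3-positive and 1.04 in Foxp3-negative cells, and 0 were lower, while in WT 0 of 10 were higher and 1 lower, Tnfrsf26 at 1.57 and 2.69. The medians of these other receptors were -0.08 in KO and -0.07 in WT.

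Between genotypes, in CD4 cells 2 of 16 adaptors were at least 1 higher in KO and 0 lower, Traf1 with 6.11 in KO and 4.81 in WT and Traf2 with 2.89 in KO and 1.65 in WT, beside 7.73% of all genes higher. In CD8 cells 1 was higher, Tnfaip3 at 7.26 in KO and 5.57 in WT, and 1 lower, Siva1, whose product binds the Cd27 tail, at 0.79 in KO and 1.99 in WT, beside 5.94% of all genes higher and 3.82% lower. These counts are near the shares of all genes. Tnf, the ligand of Tnfrsf1b, had values above 0 in 19.2% of KO and 6.33% of WT CD4 cells. Tnfaip3 differed by -2.06 in Foxp3-positive and 2.15 in Foxp3-negative cells, KO minus WT, so its genotype difference ran in opposite directions in the classes. That contrast was not tested.

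The members in libraries just outside the limit of 1000 genes were compared with those just inside it. Among 17 libraries up to 500 genes below the limit, Tnfrsf4 was above 0 in 3, Cd27 in 2, Tnfrsf9 in 1 and the other 3 genes in 0. Among 18 libraries at the limit or less than 500 genes above it, Tnfrsf9 was above 0 in 4, Cd27 and Cd40lg in 3 each, Tnfrsf4 and Tnfrsf18 in 2 each and Tnfrsf1b in 1.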

How the data were processed

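Smart-seq2 libraries of tumour T cells were grouped by the genotype, cell type and kind of library in their titles. Per the labels' protocols, cDNA was amplified over 21 cycles, with no molecular identifiers described, so reads are not molecules and intervals cover counting error only. The submitters' processing notes name Bowtie, RSEM and mm10, without versions. An annotation was not given in the sources used here. Deposited values are FPKM, which the labels describe as RSEM estimates normalized by TMM. Such values are scaled for transcript length and depth, so they hold no read counts. RSEM splits reads between similar transcripts, so a low value can arise from a related gene. All 378 columns were mapped to a sample by title, and 0 were identical.

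Cells under 1000 genes above 0 were left out. No doublet caller was run, and the protocol describes lysis in plates. Means are of log2(FPKM + 1), with a pseudocount of 1, which understates the change of low genes. A gene was counted past the threshold when these means differed by at least 1, if it was above 0 in 10% or more of 1 of the groups. With 1 sample per group no test was made.

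Relative depth was estimated from read steps in low values. A median of 67.5% to 69.1% of low values by group came within 0.1 of whole reads. Tested on 100 simulated libraries of 21777 genes, the estimate was a median of 1.00 times the true depth and within 25% of it in 85% of libraries. The simulation drew whole reads with the gene lengths that the estimate used, whereas lengths were refitted for the deposited values. It therefore cannot show how accurate the estimate is on the deposited values. The estimate was used for description and thinning only.

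The members, lists, motifs and alternatives were chosen with earlier results of these data known. Genes named are the 6 members, lineage, label and partner genes, the 3 genes of each pathway list with the largest difference in a contrast, and the 2 genes most like each member among genes above 0 in 20% or more of the cells of a group, leaving out T cell receptor, immunoglobulin, mitochondrial, Gm, Rik, Mir and Snor genes. Python 3.11.15, numpy 2.4.6, pandas 2.3.3, scipy 1.17.1 and matplotlib 3.10.9 were used.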

Additional observations from a re-analysis of the deposited data

Results flagged for a closer look

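The KO minus WT differences below had opposite signs between CD4 and CD8 cells or between Foxp3 classes. Each rests on 1 sample per group, and the difference between the differences was not tested. KO means only cells labelled Il27ra KO, whose Il27ra level did not follow the label. KO minus WT, the mean log2(FPKM + 1) of Tnfrsf4 differed by 1.51 in CD4 and -0.076 in CD8 cells, that of Tnfrsf18 by 1.16 in CD4 and -0.33 in CD8, that of Tnfrsf9 by 1.26 in CD4 and -1.40 in CD8, and that of Tnfrsf1b by 1.28 in CD4 and -1.04 in CD8. On the log2 of mean FPKM the CD8 values of Tnfrsf4 and Tnfrsf18 were 0.84 and 0.32, so these were not opposite there, and the CD8 population libraries gave 1.08 for Tnfrsf18.

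Within CD4 cells, KO minus WT, Tnfrsf18 differed by 1.36 in Foxp3-positive and -0.0070 in Foxp3-negative cells. Tnfrsf9 differed by -0.65 in Foxp3-positive and 1.10 in Foxp3-negative cells, and Tnfrsf1b by -0.081 in Foxp3-positive and 1.496 in Foxp3-negative cells. The sign near 0 held under 7 of 10 alternatives for Tnfrsf18 in Foxp3-negative and 5 of 10 for Tnfrsf1b in Foxp3-positive cells. Cd27 differed by 0.16 in Foxp3-positive and -2.02 in Foxp3-negative cells, and the sign of the 0.16 held under 8 of 10.

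Between genotypes, the CD4 minus CD8 difference of Tnfrsf1b was 1.39 in KO and -0.93 in WT cells. The WT value was 0.69 on the log2 of mean FPKM, 0.28 with matched cells and 1.83 in the population libraries. Cd27 was above 0 in 4 of the 76 single-cell libraries under 1000 genes, which the comparisons did not use. That is 5.26%, beside the 3.95% that a count of 0 allows, a limit that any count of 4 or more passes. It does not set these libraries against the kept cells.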

How the results depend on the processing

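Of 438 recomputed differences of the 6 members, 99 crossed a difference of 1 or, where under 1, changed sign, and 2 that had been past 1 changed sign. The rest did neither. The 2 were Tnfrsf18 in CD4 cells, KO minus WT, at -0.20 with at least 2000 genes, and Cd27 in KO cells, CD4 minus CD8, at 0.11 on the log2 of mean FPKM.

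All 6 members stayed past 1 between Foxp3 classes in both genotypes under all 10 alternatives. The value nearest 1 was that of WT Tnfrsf18, at 1.19 with cells matched on genes detected, against 4.06 as reported. Matching kept 20 WT cells of each class. Counts between genotypes did not keep their size. With a pseudocount of 10 they were 1 in CD4, 0 in Foxp3-positive, 1 in Foxp3-negative and 0 in CD8 cells, against 4, 1, 4 and 2 as reported. On the log2 of mean FPKM they were 0, 0, 2 and 1 in the same order. With equal weights for the Foxp3 classes, chosen after seeing the data, the count in CD4 was 0. Without cells lacking B2m or Cd3 genes it was 1 in CD4 and 4 in CD8. Without cells with markers of other cell types it was 2 in Foxp3-positive and 1 in CD8, and with cells matched on genes detected again 2 and 1. With Foxp3 above 10 FPKM it was 2 in Foxp3-positive cells. With no minimum of genes it was 1 in Foxp3-negative and 0 in CD8, and with at least 2000 genes 4 in CD8 cells. The cause was not tested.

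No paired analysis or other test was made, and the library numbers in the titles are not shared between groups. CD4 and CD8 titles of a genotype share the tag KO4 or WT4, and what its number marks is not known here. The smallest group, 30 WT Foxp3-positive cells, has intervals over 20 points wide for most shares, and no value measures the spread between animals.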
